A study of Caenorhabditis elegans with 5 samples.

Results

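The proteasome is the cell's main machine for breaking down proteins that carry ubiquitin, and its subunits are encoded in Caenorhabditis elegans by the pas, pbs, rpt and rpn genes. All genes whose symbol in the platform annotation starts with pas-, pbs-, rpt- or rpn- were taken, which gave 33 of 17118 genes measured: 14 of the core particle and 19 of the regulatory particle. The names chose them, not their values, and a gene with several probe sets was read from the brightest on average.

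RNA of whole worms was measured on 5 Affymetrix arrays, with 1 array for each group: unexposed worms (the control), and worms held for 24 h with benzene, with toluene, with formaldehyde or with the BTF mix of these 3 compounds. All were wildtype hermaphrodites, young adults aged 3 days from synchronised cultures. Exposure took place at 20 °C in salt medium, and the worms had no food during it. The sources used here give neither the concentrations nor how the control was incubated. With 1 array per group no difference could be checked in replicates and none has an error or a test, so higher and lower refer to single arrays.

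The core particle is a barrel of stacked rings: alpha subunits (PAS) form the outer rings and the gate through which a protein enters, and beta subunits (PBS) form the inner rings that cut it. The regulatory particle sits on the barrel's end. Its base holds a ring of ATPases (RPT) that unfold the protein and thread it through the gate, and its lid of non-ATPase subunits (RPN) removes the ubiquitin chain. In C. elegans, loss of proteasome function raises transcription of the subunit genes through the transcription factor SKN-1, and amounts of subunits bear on lifespan and on resistance to stress.

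The values are probe set intensities on a linear scale, and every log2 difference below is on the log2(intensity + 16) scale. The reference set is the 10271 genes whose mean level reached the 40th percentile; all 33 proteasome genes passed, 31 of them above the 80th percentile. Median intensities of the 5 arrays ran from 82.3 to 84.8, so each difference is relative to the level of its own array. Scaling on the poly-A spikes moved the median of the reference genes to 0.35 with benzene, 0.09 with toluene, 0.06 with formaldehyde and -0.55 with the mix. The core and regulatory particle medians are read relative to that shift: their gap to the median of all genes moved by under 0.1 with this scaling. That tolerance is larger than most of those medians. The other gene lists below were not rerun with this scaling. The signal ratio of the 3' to the 5' control probe sets, which reads RNA integrity and labelling, was 4.94 for actin in control against 3.30 to 3.87 in the exposed arrays. For GAPDH it was 3.03 in control, 2.41 with benzene, 2.56 with toluene, 2.76 with formaldehyde and 3.40 with the mix. For ubiquitin it was 31.3, 30.3, 30.0, 34.6 and 35.2 in the same order, and for catalase 19.5, 15.5, 18.9, 17.2 and 21.8, so the 4 transcripts did not share an order of arrays. The part of these ratios in the results below was not tested. Fewer cells of a type and less RNA per cell cannot be told apart in whole animals.

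Core particle genes stood slightly above control after benzene and toluene. After benzene all 14 were higher, with a median log2 difference of 0.16 (1.12-fold), while 42.3% of all genes were above control and their median was -0.01. After toluene 13 of 14 were higher, with a median of 0.15 (1.11-fold), while 42.4% of all genes were and their median was -0.01. The differences were small. A log2 difference of 0.32 or more in either direction was used as the fold threshold. After benzene 0 core genes were higher by it, where 9.01% of all genes were, and after toluene 1 was, where 5.59% of all genes were. The control array held the lowest value, ties included, of 11 of the 14 core genes and of 23.4% of all genes. All comparisons with control rest on that 1 array.

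Among the alpha ring genes, pas-2 had the largest difference after benzene. Its intensity was 1978 in control, 2443 with benzene, 2361 with toluene, 2299 with formaldehyde and 2376 with the mix, so the control stood below all exposed arrays, by 0.30 against benzene, 0.25 against toluene, 0.22 against formaldehyde and 0.26 against the mix. pas-3 had 3485 in control, 3715 with benzene, 4409 with toluene, 3619.6 with formaldehyde and 3866 with the mix. The toluene array alone was high for this gene: the difference was 0.34, the 1 core gene past 0.32 after toluene, against 0.09 after benzene. pas-4 had 1401 in control, 1578 with benzene, 1659.8 with toluene, 1610.3 with formaldehyde and 1578 with the mix, with the exposed arrays close together and the control below them (0.17 to 0.24).

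pas-7 went both ways, with 1406 in control, 1491 with benzene, 1534 with toluene, 1221 with formaldehyde and 1231 with the mix. It was slightly above control after benzene (0.08) and toluene (0.13) and below it after formaldehyde (-0.20) and the mix (-0.19), and no other core gene stood more than 0.04 below control in any exposure. pas-1 had 1490.5 in control, 1732 with benzene, 1598 with toluene, 1551 with formaldehyde and 1546 with the mix, and benzene was its highest array (0.21). pas-5, with 3479 in control, 3842 with benzene, 3826 with toluene, 3484 with formaldehyde and 3674 with the mix, was 0.14 above control after benzene and 0.14 after toluene and equal to control within 0.01 after formaldehyde. pas-6 had 3231 in control and the same deposited value, 3356, on the 4 exposed arrays (0.05).

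The beta ring holds the cutting sites, which by homology to yeast and mammals lie on PBS-1, PBS-2 and PBS-5. Of these catalytic subunit genes, pbs-5, whose product carries the chymotrypsin-like site targeted by drugs such as bortezomib, had the largest differences: 1069 in control, 1283 with benzene, 1244 with toluene, 1239 with formaldehyde and 1349.9 with the mix. Control was the lowest array, and the differences were 0.26, 0.22, 0.21 and 0.33, the last of which was the 1 core difference past 0.32 with the mix, where 13.7% of all genes were. pbs-1 (caspase-like site) had 2141 in control, 2411 with benzene, 2284 with toluene, 2195 with formaldehyde and 2286 with the mix, highest after benzene (0.17) and between 0.04 and 0.09 in the other exposures. pbs-2 (trypsin-like site) had 1127 in control, 1255 with benzene, 1256 with toluene, 1099 with formaldehyde and 1125 with the mix. It was above control after benzene (0.15) and toluene (0.15), while formaldehyde (-0.04) and the mix (-0.002) lay close to control.

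The beta subunits without a cutting site behaved alike in direction after benzene. pbs-7 had 4038 in control, 4614 with benzene, 4542 with toluene, 4418 with formaldehyde and 4596 with the mix, above control in every exposure (0.13 to 0.19). pbs-4 had 1859 in control, 2126 with benzene, 2073 with toluene, 1920.4 with formaldehyde and 1982 with the mix, with 0.19 after benzene and 0.05 after formaldehyde. pbs-3 had 2101 in control, 2315 with benzene, 2334 with toluene, 2157 with formaldehyde and 2202 with the mix, with 0.14 and 0.15 after benzene and toluene. pbs-6 was the exception after toluene, with 2950.0 in control, 3069 with benzene, 2946 with toluene, 2974 with formaldehyde and 3206 with the mix: the toluene array was its lowest, by a margin of -0.002 from control.

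After formaldehyde the core genes lay nearer to control. Of the 14, 12 were above control, with a median of 0.05 (1.04-fold), while 36.6% of all genes were above and their median was -0.05. Of the core genes 0 passed 0.32 in either direction, against 13.4% of all genes higher and 15.4% lower. After the mix 12 of 14 were above control, with a median of 0.09 (1.07-fold), beside 38.7% and -0.04 for all genes. The same pair, pas-7 and pbs-2, lay below control in both; these comparisons share the control array.

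**Figure D1:**
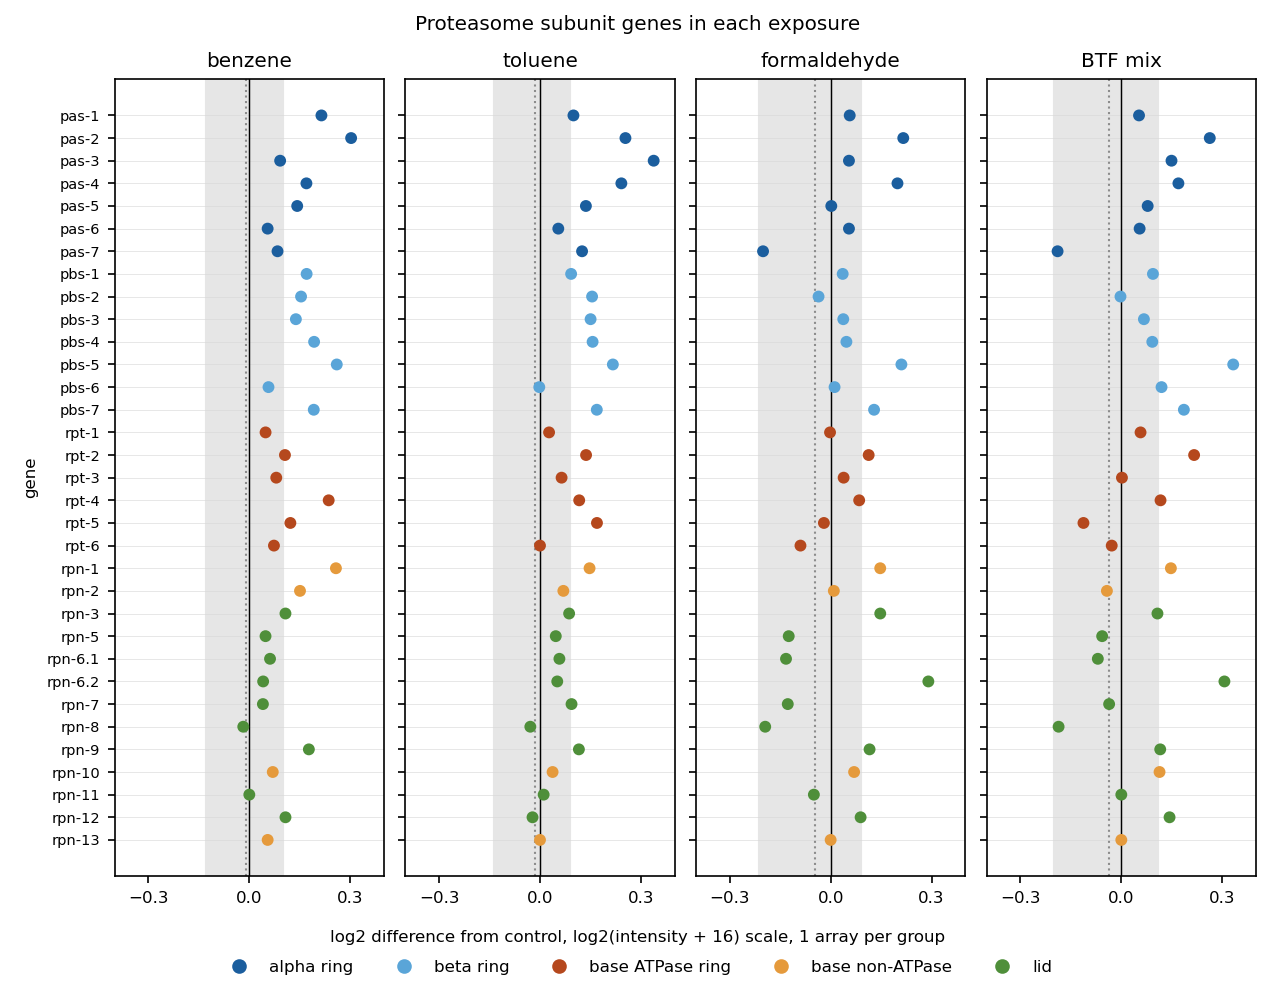
Log2 difference from control of the 33 proteasome genes (rows) after each exposure (panels), 1 point per gene coloured by ring or subcomplex; the grey band spans the middle 50% of the 10271 reference genes and the dotted line is their median. After benzene all 14 core genes lie to the right of 0, and pas-7 and rpn-8 are the lowest points after formaldehyde (-0.20 and -0.19).

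The ATPase ring of the base was a little higher than control after benzene. There 6 of 6 genes were above (median 0.09), beside 42.3% of all genes (median -0.01). After toluene 5 of 6 were above (median 0.09), beside 42.4% of all genes. After formaldehyde and the mix 3 and 4 of 6 were above (medians 0.02 and 0.03), beside 36.6% and 38.7% of all genes. rpt-4 had 2305 in control, 2717 with benzene, 2500.1 with toluene, 2445 with formaldehyde and 2500.1 with the mix, lowest in control and highest after benzene (0.24). rpt-2, whose yeast counterpart helps to open the gate of the core, had 2945 in control, 3171 with benzene, 3239.9 with toluene, 3186 with formaldehyde and 3424 with the mix, and the mix was its highest array (0.22).

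rpt-5 had 1187 in control, 1293 with benzene, 1337 with toluene, 1171 with formaldehyde and 1097 with the mix: it was above control after benzene (0.12) and toluene (0.17) and below it in the mix (-0.11). rpt-6 had 357 in control, 376 with benzene, 357 with toluene, 334 with formaldehyde and 349 with the mix, with toluene listed at the control value and formaldehyde the lowest array (-0.09). On the probe sets used, rpt-1 and rpt-3 lay closest to control over the 4 exposures, between -0.002 and 0.06 and between 0.002 and 0.08. A second probe set of rpt-1 stood at 0.11 after toluene and -0.10 after formaldehyde. The ATPases work as 1 ring, and their genes did not share a direction after formaldehyde or the mix.

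The other base subunits are RPN-1 and RPN-2, the large scaffold proteins, and RPN-10 and RPN-13, which bind ubiquitin chains. After benzene 4 of 4 genes were above control, with a median of 0.11, beside 42.3% of all genes and a median of -0.01. rpn-1 had 1468 in control, 1757 after benzene and the same value, 1627, on the other 3 arrays, so control was lowest (0.26 for benzene and 0.15 for the others). rpn-2 had 2242 in control, 2491 with benzene, 2354 with toluene, 2257 with formaldehyde and 2176 with the mix, with benzene the highest (0.15) and the mix the lowest (-0.04). rpn-10, loss of which feminises the germ line in C. elegans, had 3694 in control, 3877 with benzene, 3791 with toluene, 3877 with formaldehyde and 3998 with the mix, a range of 0.11 over the arrays. rpn-13 carried the same value, 1147, on all arrays but benzene, where it had 1192 (0.05). Equal deposited values on a pair of arrays or more were seen in 10 of the 33 genes and in 32.4% of the reference genes.

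The lid genes divided after formaldehyde, much as all genes did. Of 9 genes, 5 were lower than control and 4 higher, with a median of -0.05. Of all genes 58.6% were below control, and their median was also -0.05. The lower ones were rpn-8, rpn-6.1, rpn-7, rpn-5 and rpn-11. rpn-8, the partner of the ubiquitin-removing subunit, had 4001 in control, 3951 with benzene, 3922 with toluene, 3494 with formaldehyde and 3514 with the mix, the 1 proteasome gene that was highest in control, and stood at -0.19 after formaldehyde and -0.19 after the mix. rpn-6.1, which stabilises the contact of lid and core and extends lifespan in C. elegans when raised, had 1266 in control, 1322 with benzene, 1319 with toluene, 1154 with formaldehyde and 1206 with the mix, lowest after formaldehyde (-0.13). The lid's frame also holds RPN-5 and RPN-7. rpn-7 had 2164 in control, 2226 with benzene, 2310.5 with toluene, 1979.8 with formaldehyde and 2110.0 with the mix, and formaldehyde was again the lowest array (-0.13). rpn-5 had 1806 in control, 1868 with benzene, 1866 with toluene, 1655 with formaldehyde and 1736 with the mix, with formaldehyde lowest too (-0.12).

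rpn-11, the metalloprotease that removes the ubiquitin chain, stayed within -0.05 and 0.01 of control, at 1056 in control, 1056 with benzene, 1064 with toluene, 1019.6 with formaldehyde and 1056 with the mix. After benzene and toluene the lid stood close to control, with medians of 0.05 and 0.05. In each, 7 of 9 genes were above, beside 42.3% and 42.4% of all genes. The largest difference was that of rpn-9 after benzene (0.18). rpn-9 had 1362 in control, 1541 after benzene and 1477 on each of the other arrays. rpn-3 had 2668 in control, 2876 with benzene, 2834 with toluene, 2957 with formaldehyde and 2876 with the mix, with control lowest and formaldehyde highest (0.15). rpn-12 had 1528 in control, 1648 with benzene, 1504 with toluene, 1626 with formaldehyde and 1689 with the mix, with toluene the lowest array and the mix the highest (0.14).

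rpn-6.2 is a second gene related to rpn-6.1. It had 236 in control, 243 with benzene, 245 with toluene, 292 with formaldehyde and 295 with the mix. Control, benzene and toluene lay together (0.04 and 0.05 from control), and formaldehyde (0.29) and the mix (0.31) lay above them, opposite in sign to rpn-6.1 (-0.13 and -0.07). In size these were the largest differences of any regulatory particle gene in those exposures, and both stayed under the threshold of 0.32. With a pseudocount of 1 the mix value passed it. The summed intensity of 9 sperm marker genes was 2156 in control, 5149 with benzene, 3859.8 with toluene, 10243 with formaldehyde and 8696 with the mix. Most of it came from msp-3, msp-64 and msp-142 (3869, 2518 and 2628 with formaldehyde), and 2 of the 9 genes lay below the level filter. The part of the sperm markers in the rpn-6.2 values was not tested.

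**Figure D2:**
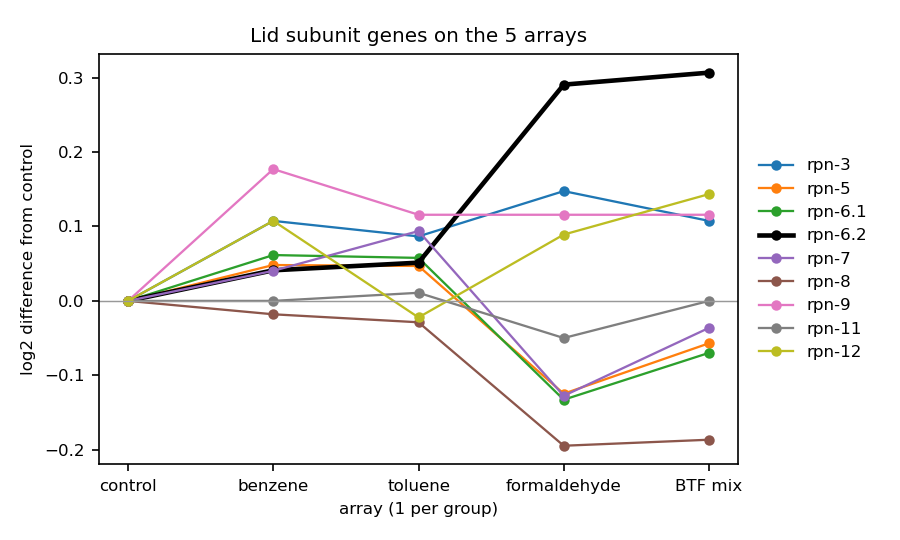
Log2 difference from control (vertical axis) of the 9 lid genes on the 5 arrays (horizontal axis); each point is 1 array and lines only join the points of a gene. rpn-6.2 (thick black) lies at 0.29 after formaldehyde and 0.31 after the mix, above every other lid gene there, and rpn-8 is the lowest.

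Over the whole regulatory particle the median was 0.07 after benzene, where 17 of 19 genes were above control and 1 below, beside 52.3% of all genes below. It was 0.06 after toluene, where 15 were above and 2 below, beside 53.2%. It was 0.01 after formaldehyde, where 10 were above and 8 below, beside 58.6%. After the mix it was 0.002, with 10 above and 7 below, beside 56.8% of all genes below. With poly-A scaling 0 of 19 were above control after the mix, beside 9.67% of all genes. The regulatory median (-0.55) then lay within 0.01 of that of all genes (-0.55). No regulatory gene passed 0.32 in any exposure, and of all 33 genes 0 passed 2-fold, where 1.2%, 0.107%, 4.55% and 4.34% of all genes were higher and 0.175%, 0.0974%, 2.27% and 2.31% lower in the order of exposures above. At 0.32, 5.63% of all genes were lower after benzene, 5.8% after toluene and 15.4% after the mix, and 0 proteasome genes were. The core median was above the regulatory median by 0.09 after benzene and 0.09 after toluene, a difference that 1 array per group cannot test.

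The family spanned a narrow range. After formaldehyde the middle 50% of the 33 genes lay between -0.02 and 0.11, and that of all genes between -0.21 and 0.09. The outermost proteasome genes were pas-7 (-0.20) and rpn-6.2 (0.29), while the central 95% of all genes ran from -0.95 to 1.41. After benzene the family ran from -0.02 (rpn-8) to 0.30 (pas-2), with the central 95% of all genes between -0.43 and 0.70. The proteasome genes are bright, so the reference was also taken among bright genes. Among the 3424 genes above the 80th percentile of level, a setting chosen after seeing the data, the medians were -0.02, -0.03, -0.06 and -0.05 in the benzene, toluene, formaldehyde and mix arrays, and 40.7%, 42.4%, 32.5% and 36.7% stood above control. Fewer of them passed 0.32 than of the whole reference: 8.06%, 5.37%, 9.58% and 9.73% were higher by it and 3.86%, 3.94%, 9.32% and 10.0% lower, in the same order, and of the 31 proteasome genes among them 0, 1, 0 and 1 were higher and 0, 0, 0 and 0 lower.

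**Figure D3:**
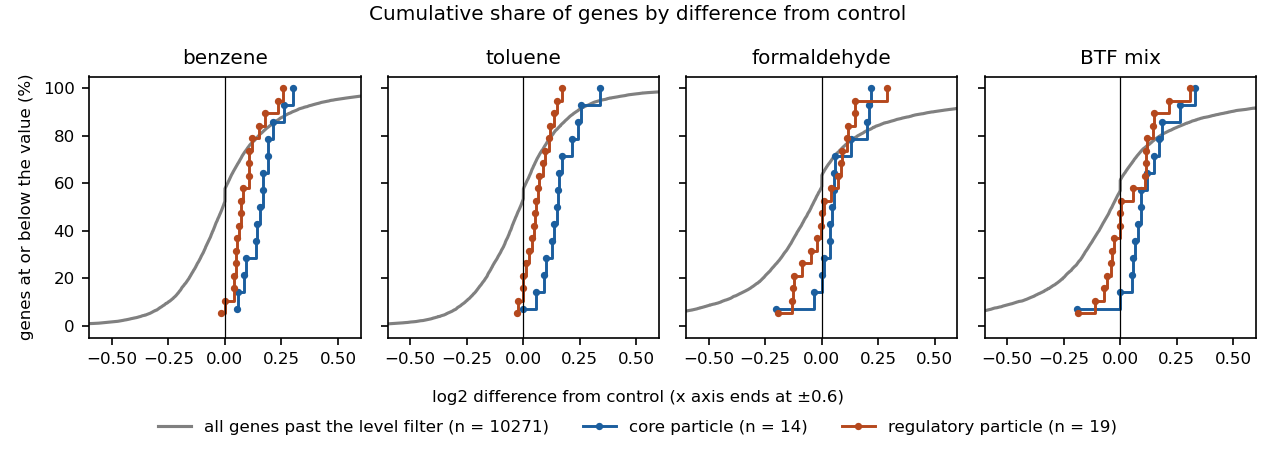
Cumulative share of genes (vertical axis, percent) at or below each log2 difference from control (horizontal axis) for the 10271 reference genes, the 14 core particle genes and the 19 regulatory particle genes, 1 panel per exposure. The core curve lies to the right of the reference median after benzene and toluene (medians 0.16 and 0.15 against -0.01 and -0.01), and the curves of both particles are steeper than that of the reference.

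Arrays of exposed worms were also set against each other, which leaves out the control array. Proteasome genes were lower after formaldehyde than after benzene: 27 of 33 were lower, 2 were equal and 4 were higher, while 52.1% of all genes were lower and 39.8% higher. The core median was -0.09 with 12 of 14 lower, and the regulatory median -0.06 with 15 of 19 lower, beside -0.01 for all genes. pas-7 (-0.28), rpn-6.1 (-0.19) and pbs-2 (-0.19) were the lowest, and rpn-6.2 (0.25), rpn-3 (0.04), pas-4 (0.03) and rpt-2 (0.01) were the 4 higher ones. On the second probe set rpt-2 stood at -0.13 and pbs-3 at 0.03, each opposite in sign to the value used (0.01 and -0.10). Averaged over the probe sets of each gene, the regulatory median was -0.11. At 0.32, 0 of the 33 were lower or higher, where 9.92% of all genes were lower and 9.06% higher. Being lower after formaldehyde than after benzene was not particular to the proteasome. Among lists described below, 61 of 62 cytosolic ribosomal protein genes were lower and 1 higher (median -0.08). Of CCT chaperonin genes 7 of 8 were lower and 0 higher (-0.09). Of autophagy genes 21 of 25 were lower and 3 higher (-0.11). Intestine, sperm and hypodermis markers had medians above 0 (0.26, 0.83 and 0.31).

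The mix lay slightly above formaldehyde alone, with 23 of 33 genes higher, 6 lower and 4 equal, beside 49.6% of all genes higher and 43.6% lower. The core median was 0.05 and the regulatory median 0.03, beside 0 for all genes; with poly-A scaling both lay within 0.01 of the median of all genes, so the gap was lost. All 7 beta ring genes were higher in the mix, from 0.03 (pbs-3) to 0.12 (pbs-5), and rpt-5 was the lowest of the family (-0.09). Benzene and toluene (methylbenzene) differ by a methyl group on the ring. Their concentrations are not known, so values are given side by side: the median of benzene minus toluene was 0.01 for the core and 0.02 for the regulatory particle, beside 0 for all genes. Of the 33 genes 22 were higher and 10 lower after benzene, beside 49.9% and 42.4% of all genes. The widest gaps were pas-3, lower after benzene (-0.25), and rpn-12 (0.13), rpt-4 (0.12), pas-1 (0.11) and rpn-1 (0.11), higher after it.

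**Figure D4:**
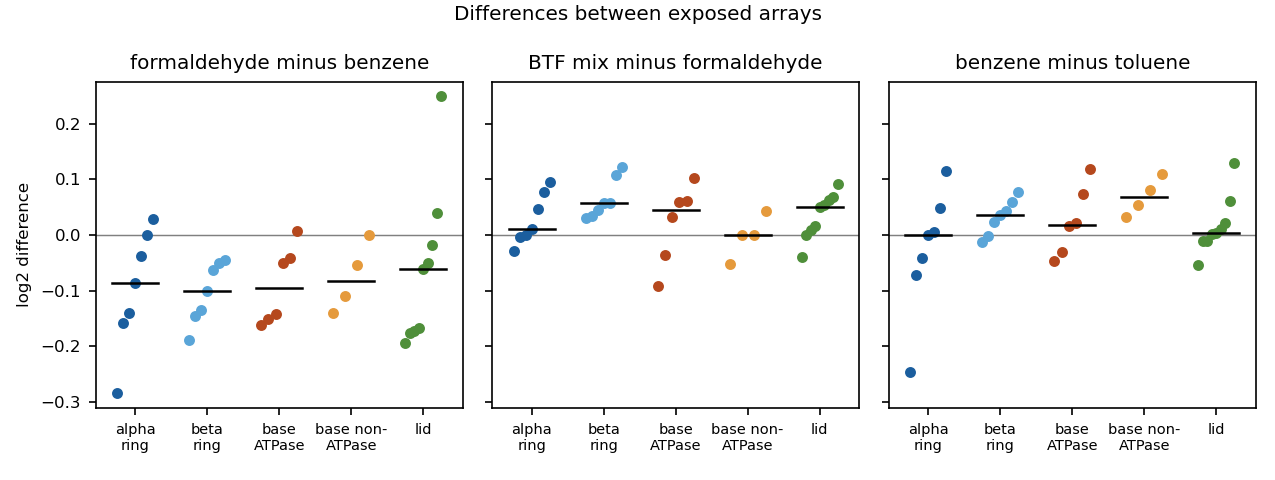
Log2 difference between pairs of exposed arrays (vertical axis) for the 33 proteasome genes by ring or subcomplex (horizontal axis, points of a group spread in order of value); black bars are group medians. All 5 medians lie below 0 for formaldehyde minus benzene (between -0.10 and -0.06), with rpn-6.2 the highest lid point at 0.25.

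A second probe set was present for 6 genes, pbs-3, pbs-7, rpt-1, rpt-2, rpn-2 and rpn-10. After benzene, toluene and formaldehyde the sign of the difference from control was the same on both probe sets of all 6, and after the mix it was for 4. rpn-2 was -0.04 on the brighter and 0.04 on the other, and rpt-1 0.06 and -0.03. The other rpn-2 probe set was dim, with 58 in control, 70 with benzene and 60 on each remaining array. Sizes differed within a gene: pbs-3 stood at 0.07 and 0.22 after the mix, rpt-2 at 0.22 and 0.04, rpn-10 at 0.07 and 0.18 after benzene, and pbs-7 at 0.19 and 0.26. These gaps, up to 0.18, are as large as many of the differences described. In total, 20 of the 33 genes were read from probe sets of the s or x kind, which may pick up more than 1 transcript, among them 11 of the core. The 3 core genes on unmarked probe sets (pas-2, pas-5 and pbs-4) had a median of 0.19 after benzene.

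Genes whose products work on the proteasome mostly stood above control as well. Of 10 such genes listed, 4 were measured, and the medians were 0.21 with benzene, 0.15 with toluene, 0.11 with formaldehyde and 0.17 with the mix. Above control were 4, 3, 4 and 4 of 4, beside 42.3%, 42.4%, 36.6% and 38.7% of all genes. usp-14, a deubiquitinase that docks on RPN-1, had 1499 in control, 1839.9 with benzene, 1703 with toluene, 1612 with formaldehyde and 1688 with the mix, so control was lowest and benzene highest (0.29). dss-1, whose yeast counterpart Sem1 is a small lid subunit, had 2273 in control, 2713 with benzene, 2675 with toluene, 2553 with formaldehyde and 2553 with the mix, with 0.25 after benzene and 0.23 after toluene. ubh-4, a deubiquitinase that docks on RPN-13 in mammals, was 0.11 to 0.16 above control. psme-3, a proteasome activator gene, stood at 0.18 after the mix and between -0.03 and 0.04 in the other exposures. None of the 4 passed 0.32.

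Upstream of the proteasome, genes of ubiquitin and of the enzymes that activate and transfer it (5 of 23 listed were measured) had medians of 0.02, -0.01, -0.14 and -0.07 in the benzene, toluene, formaldehyde and mix arrays, with 0 past 0.32. Among them were let-70, a ubiquitin-conjugating enzyme (-0.16 after formaldehyde), the ubiquitin fusion gene ubq-2 (-0.15) and the conjugating enzyme variant uev-1 (-0.14). Genes of CDC-48, the segregase that extracts ubiquitinated proteins, and of substrate delivery (13 of 14) had medians of 0.03, -0.005, 0 and -0.001 and 0 past 0.32, with the ubiquilin gene ubql-1 at 0.27 and ubxn-4 at -0.18 after formaldehyde and cdc-48.1 at 0.19 after benzene.

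SKN-1 and genes that act on it (7 of 8), among them wdr-23, whose product directs SKN-1 to degradation, had medians of -0.06, -0.10, -0.13 and -0.06, again with 0 past 0.32. png-1, the glycanase that processes SKN-1, stood at -0.29 after formaldehyde, the protease gene ddi-1 at -0.21 and sel-1, a component of the ER ubiquitin ligase, at -0.21 after benzene. skn-1 itself had 1512 in control, 1583 with benzene, 1407 with toluene, 1700.5 with formaldehyde and 1716 with the mix, with toluene below control (-0.10) and the other exposures above it (0.07 to 0.18).

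Subunits of cullin-RING ubiquitin ligases (27 of 29) had medians of 0.03, 0.05, -0.08 and -0.04, and the list ran from -1.84 to 0.45 after formaldehyde. At 0.32, 5 were higher and 0 lower after benzene, beside 9.01% and 5.63% of all genes. After toluene 4 were higher and 0 lower, beside 5.59% and 5.8%. After formaldehyde it was 3 and 3, beside 13.4% and 15.4%, and after the mix 5 and 3, beside 13.7% and 15.4%. The Skp1-related skr-21 had 709.8 in control, 663 with benzene, 687 with toluene, 186 with formaldehyde and 188 with the mix, with formaldehyde (-1.84) and the mix (-1.83) far below the other arrays. skr-19 stood at -0.90 and skr-5 at -0.87 after formaldehyde. The COP9 signalosome, a complex built like the lid, had medians of -0.001, 0.06, -0.04 and -0.03 over 6 of 6 genes, with csn-1 at 0.24 and csn-4 at 0.15 after toluene and csn-5 at -0.12 after formaldehyde.

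Autophagy, the other main route of protein breakdown, had medians of -0.04, -0.01, -0.15 and -0.16 over 25 of 26 genes, with 7 lower and 0 higher by 0.32 after formaldehyde beside 15.4% and 13.4% of all genes, among them atg-2 (-0.51), atg-16.2 (-0.63) and epg-2 (-0.71).

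Large complexes that most cells make gave a further point of reference. The CCT chaperonin, which folds actin and tubulin, had medians of 0.17, 0.07, -0.002 and 0.01 over 8 genes. Above control were 7 after benzene and 8 after toluene, beside 42.3% and 42.4% of all genes. cct-1 had 4581 in control, 5409 with benzene, 5541 with toluene, 5409 with formaldehyde and 5409 with the mix, with control below all exposed arrays. cct-7 was 0.22 after benzene and 0.04 after formaldehyde. cct-3 was 0.22 after toluene, on a dim probe set that read 101 in control and 120 with toluene. Cytosolic ribosomal protein genes had medians of -0.04, 0.005, -0.13 and -0.10 over 62 genes. Of these, 11 and 35 were above control after benzene and toluene, beside 42.3% and 42.4% of all genes. After formaldehyde and the mix 2 and 1 were, beside 36.6% and 38.7%. rpl-9 (-0.37), rps-7 (-0.27) and rpl-13 (-0.24) were the lowest named ribosomal protein genes after formaldehyde. Differences between these lists and the proteasome cannot be tested with 1 array per group.

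Marker genes of the main tissues of the worm were read on the same arrays, and 3 of 53 lay below the level filter, 2 of sperm and 1 of neurons. Summed intensities of 14 germline and oocyte markers were 56194 in control and 51590.0 to 54291 in the exposed arrays, and the medians were -0.07, -0.12, -0.04 and -0.08 in the order of exposures above. For 7 intestine markers the sum was 2243 in control and 2416 to 5312 after exposure, and the medians were 0.30, -0.03, 0.56 and 0.55. After formaldehyde act-5 stood at 2.38 and pho-1 at 2.15, while the intestinal transcription factor genes elt-2 and elt-7 stood at 0.03 and -0.35. After toluene 3 of the 7 were above control and 4 below, beside 42.4% and 53.2% of all genes. Sperm markers had medians of 0.73, 0.32, 1.57 and 1.58 and muscle markers 0.37, 0.19, 0.30 and 0.09. After formaldehyde 4 of the 7 muscle markers were above control and 3 below, beside 36.6% and 58.6% of all genes. Neuron markers had medians of -0.15, -0.25, -0.32 and -0.36 and hypodermis markers 0.22, 0.23, 0.46 and 0.37. The sums were 20204 in control and 20118 to 20753 after exposure for muscle, 6407 and 4944 to 5803 for neurons and 26725 and 31518 to 38087 for hypodermis. Their part in the proteasome values was not tested.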

How the data were processed

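The authors deposited 1 table of probe set values in linear intensity. The submitters' processing notes name RMA, MAS5 and Affymetrix Expression Console 1.1, and the sources used here do not say which of them normalised the values. Labelling used a 3' kit and 300 ng of RNA per sample, per the labels' protocols. The number of arrays limits the precision. From 22625 probe sets, 20766 naming 1 gene were kept, the brightest probe set was taken per gene, and intensities were taken to log2(value + 16). Symbols of the 33 members matched a RefSeq gene table by Entrez ID. Medians and counts past a log2 difference of 0.32 and past 2-fold were described beside the same over the 10271 genes past the level filter, with no test. All members could be named. Those described in full were the 3 highest and 3 lowest of each particle per exposure, and the rest in brief. Each other list gave up to 3 names, taken by size of difference over the exposures, and skn-1, ubh-4, wdr-23, elt-2 and elt-7 were added after their values were seen. Members and lists were chosen with earlier results of these data known. Subcomplexes were assigned from textbook knowledge. Alternatives were other filters, pseudocounts, scalings, folds and probe set choices. The steps were run on simulated data with many more shifted genes than these sets hold. That run does not measure the error of a median over sets this small. A planned promoter motif search was not run. Python 3.11.15, numpy 2.4.6 and pandas 2.3.3 were used.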

Additional observations from a re-analysis of the deposited data

How the results depend on the processing

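No paired analysis was possible because each group has 1 array. Alternatives gave 147 medians of the core and regulatory particles, and the other gene lists were not rerun. Of the 147, 133 moved by under 0.1 from the reported value without turning in sign from a size of 0.05 or more. The tolerance of 0.1 is larger than most of the reported medians, so the count does not show that they held. The other 14 medians all came from poly-A spike scaling. Without it, the core median ran from 0.14 to 0.19 with benzene, 0.15 to 0.17 with toluene, 0.02 to 0.06 with formaldehyde and 0.08 to 0.11 with the mix, and the regulatory median from 0.05 to 0.08, 0.04 to 0.08, -0.01 to 0.02 and 0.001 to 0.03, so the last but one took both signs. Formaldehyde minus benzene ran from -0.14 to -0.09 for the core and -0.11 to -0.04 for the regulatory particle. Both signs were also seen for benzene minus toluene, from -0.02 to 0.04 for the core and -0.01 to 0.02 for the regulatory particle. With poly-A scaling the core medians were 0.55, 0.27, 0.16 and -0.46 and the regulatory medians 0.47, 0.17, 0.12 and -0.55 in the benzene, toluene, formaldehyde and mix arrays, so the core was reversed in the mix. Formaldehyde minus benzene was -0.38 for the core and -0.34 for the regulatory particle, the mix minus formaldehyde -0.62 and -0.62, and benzene minus toluene 0.29 and 0.30. This scaling shifts all genes of an array together. The gap of a particle median to that of all genes moved by under 0.1 in all 147, a tolerance that lets a small gap be lost. With poly-A scaling the gap came to within 0.01 of 0 for both particles in the mix against formaldehyde. It did so too for the regulatory particle in the mix against control. With quantile normalization the core gap after formaldehyde fell from 0.10 to 0.05, and 9 of 14 core genes, not 12, were above control. Counts past the threshold of 0.32, of 0, 1, 0 and 1 in that order, became 33, 4 and 3 higher and 30 lower with poly-A scaling. With this scaling 58.3% of all genes were higher by it with benzene, 11.3% with toluene and 17.05% with formaldehyde. In the mix 80.2% of all genes were lower by it, so these counts went along with a shift of all genes. At 1.1-fold the proteasome counts were 14, 10, 8 and 11. With benzene 14 were higher and 0 lower by it, beside 21.2% and 23.5% of all genes, and with toluene 10 were higher and 0 lower, beside 18.4% and 24.8%. With formaldehyde 6 were higher and 2 lower, beside 21.5% and 34.5%, and with the mix 9 were higher and 2 lower, beside 22.8% and 33.5%. At 2-fold the counts were 0 in each. The toluene count was 0 with quantile normalization and without s and x probe sets. The mix count was 2 with median centring, quantile normalization and a pseudocount of 1, and 0 with a pseudocount of 64 and without s and x probe sets. With a pseudocount, filter or fold the choice itself sets the count; otherwise the cause was not tested. The single array per group limits every value. Adding a filter at the 80th percentile and leaving out rpn-6.2 were alternatives chosen after seeing the data.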
